A study of Mus musculus with 9 samples.

Results

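The rows of miR-146a, miR-146b and miR-155 were examined in the livers of control mice, mice with thioacetamide-induced fibrosis and mice after thioacetamide withdrawal. They were chosen by name, as all rows starting with mmu-miR-146a-, mmu-miR-146b- or mmu-miR-155-, and numbered 6 of the 1140 rows in the table, 1 row for the 5p arm and 1 for the 3p arm of each hairpin. The small RNA libraries came from whole livers of 9 C57BL/6 males, 3 per group, aged 8 weeks at the start. Control mice received intraperitoneal normal saline for 8 weeks. TAA mice received intraperitoneal thioacetamide (TAA), a compound that injures hepatocytes and leads to fibrosis, for 8 weeks. Recovery mice received the same 8-week TAA course and were then left without TAA for 8 more weeks, so that recovery and a later age cannot be told apart. No mouse carried a transgene or deletion, and all samples were whole liver, in which fewer cells of a type and less miRNA per cell cannot be told apart.

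miR-146a, miR-146b and miR-155 are known from innate immunity. The transcription factor NF-κB, which drives inflammatory genes after signals from Toll-like and cytokine receptors, raises the primary transcripts of miR-146a and miR-155. miR-146 represses the kinase Irak1 and the adaptor Traf6 upstream of NF-κB and so acts as a negative feedback. In contrast, miR-155 represses inhibitors such as Socs1 and Inpp5d (SHIP1) and tends to sustain inflammatory responses. In the liver these miRNAs are described in Kupffer cells, infiltrating leukocytes and stellate cells, which deposit the scar matrix.

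The mature sequences are shown because miR-146a-5p and miR-146b-5p share their seed, the stretch at bases 2 to 8 that pairs with targets (capitals), while miR-155-5p has another. They are RefSeq sequences of the build GRCm38.p6, and all 6 rows were matched.
mmu-miR-146a-5p: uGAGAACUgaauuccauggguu
mmu-miR-146b-5p: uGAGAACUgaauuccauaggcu
mmu-miR-155-5p: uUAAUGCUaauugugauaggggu
mmu-miR-146a-3p: cCUGUGAAauucaguucuucag
mmu-miR-146b-3p: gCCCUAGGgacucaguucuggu
mmu-miR-155-3p: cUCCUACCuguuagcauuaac

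Among the 935 known miRNA rows with a sequence in RefSeq, miR-146a-5p and miR-146b-5p had the seed GAGAACU in common with no other row, and no other row shared the seed of miR-155-5p or of any 3p arm. Both miR-146 5p arms are 22 bases long and identical at 20 of them. Counted from 1 at the 5′ end, with the base of miR-146a-5p first, they differ by G18A and U21C. The first 17 bases are the same, so a read cut short before base 18 belongs to both. How the authors assigned such reads was not stated, and the split between these 2 rows is uncertain to that extent.

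The 3 hairpins lie on different chromosomes (GENCODE M21, GRCm38). Mir146, the gene of miR-146a, lies at chr11:43374397-43374461 on the minus strand, outside other annotated genes. Mir146b lies at chr19:46342762-46342870 on the plus strand, in an intron of the protein-coding gene Mfsd13a of the same strand. Mir155 lies at chr16:84714140-84714204 on the plus strand, in an exon of its host lincRNA Mir155hg. The hairpins of Mir146b and Mir155 are given with both arms in capitals, since the arms are compared below.
Mir146b: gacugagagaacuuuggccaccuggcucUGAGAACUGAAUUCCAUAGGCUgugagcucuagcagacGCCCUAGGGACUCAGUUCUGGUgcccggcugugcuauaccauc
Mir155: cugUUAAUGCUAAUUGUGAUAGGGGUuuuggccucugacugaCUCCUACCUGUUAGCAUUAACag

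Total counts ranged from 9071847 to 12983378 per sample. The scale matters for these livers. Scaling by TMM, which takes most miRNAs as unchanged, gave TAA livers factors of 1.43 to 1.63, against 0.738 to 0.792 for control livers and 0.766 to 0.887 for recovery livers. The deposited TPM are counts per 1000000 of all miRNA counts, which is scaling by library totals. Moving from TMM to this scale shifted the median log2 fold change of all rows by 1.12 between TAA and control, by -0.86 between recovery and TAA, and by 0.19 between recovery and control. Levels below are counts per 1000000 scaled by TMM (CPM) with the deposited TPM beside them. The CPM took TMM factors from all 9 samples together. Each log2 fold change took its factors from the groups compared, so it can differ from the ratio of the printed means. DEM denotes a differentially expressed miRNA, one that passed both an FDR of 0.05 in the edgeR quasi-likelihood test and a 2-fold difference. The liver markers miR-122, miR-192 and miR-194 made up 273385 to 298714 TPM of the control livers.

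The 3p arms were hardly detected. Over all 9 samples miR-146a-3p had 5 counts against 51790 of its 5p arm, miR-146b-3p had 12 against 34977 and miR-155-3p had 20 against 767. The 3p share was thus 0.00965% for miR-146a (95% exact interval 0.00313 to 0.0225), 0.0343% for miR-146b (0.0177 to 0.0599) and 2.54% for miR-155 (1.56 to 3.90), where the intervals cover counting error only. No 3p count in any sample exceeded 5, and in the control group both miR-146 3p arms had 0 counts. A limit of 3 counts would be 0.0252% of the miR-146a and 0.0795% of the miR-146b reads there, and the exact intervals reach 0.0310% and 0.0977%. For miR-155, the 3p share was 4.65% (1.28 to 11.5) for control, 2.50% (1.34 to 4.25) for TAA and 1.65% (0.341 to 4.74) for recovery. These intervals, on counts pooled over the mice of a group, were wide and overlapped. A difference between groups was not tested. The 3p rows did not pass the filter on low counts, and the 3 rows of the 5p arms were tested in each comparison.

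**Figure D1:**
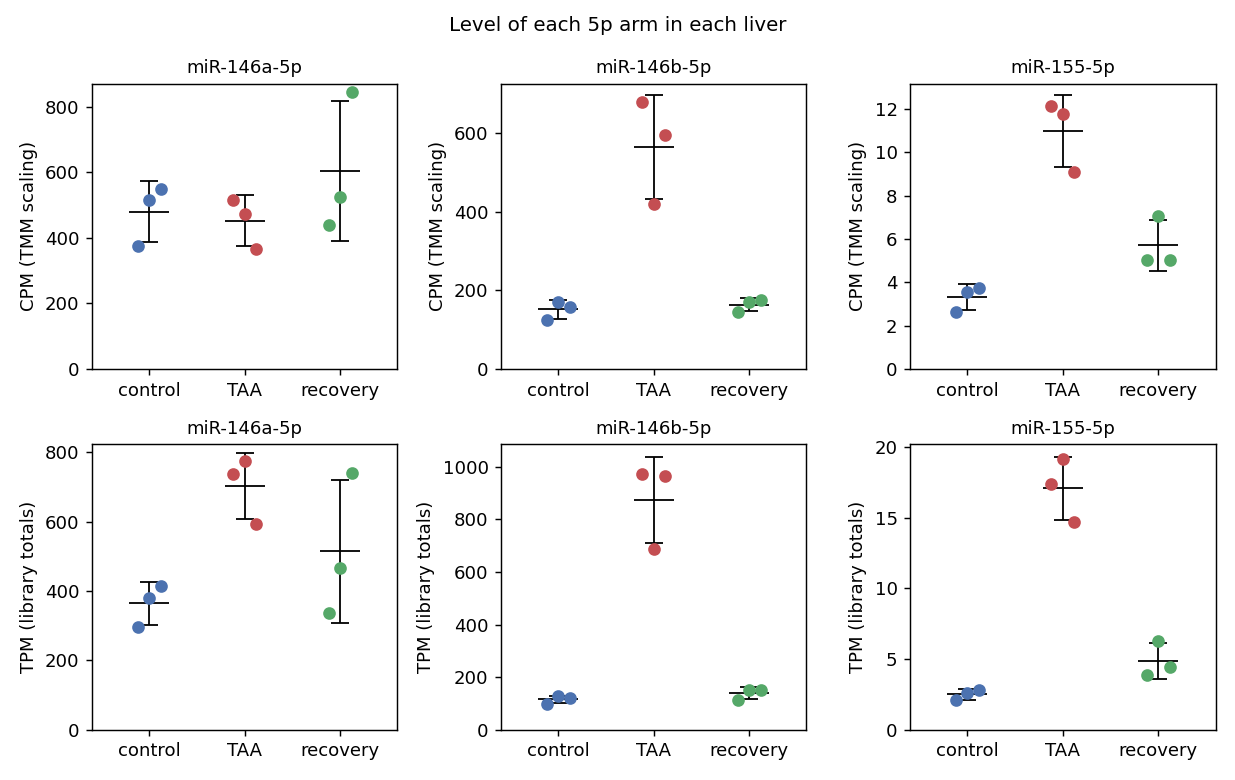
Level of each 5p arm in each liver, in CPM scaled by TMM (upper row) and in the deposited TPM scaled by library totals (lower row). Points are mice, bars are mean and SD (n = 3). miR-146b-5p and miR-155-5p were highest in all TAA livers on both scales, while the order of the groups for miR-146a-5p differs between the scales.

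In the fibrotic liver, miR-146b-5p and miR-155-5p rose about 3-fold on the TMM scale and miR-146a-5p did not pass the test. The question here was what differed from control at the end of the 8-week course. The study took the TAA livers days after the final injection, so the last dose and the longer course cannot be told apart. Both rises were DEMs, 2 of the 3 rows tested, where 25% of all 420 rows tested were DEMs in this direction (57.4% under library totals).

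miR-146b-5p, the arm with the larger change, was counted 1285, 1298 and 1190 times in control replicates 1 to 3, and TAA replicates 1 to 3 had 11019, 6218 and 8842 counts. On the TMM scale this was 125, 171 and 158 CPM against 679.6, 419.7 and 594 CPM. All TAA livers lay above all control livers, which held for 39.3% of the rows tested, and TAA replicate 2 was the lowest of its group. The group means were 151.5 ± 23.9 and 564 ± 132 CPM (SD, n = 3), with a log2 fold change of 1.80 (SE 0.20, 95% interval 1.34 to 2.26, edgeR FDR 0.000341). Under library totals the log2 fold change was 2.93 (FDR 3.88e-05), from 115 ± 14.3 to 874 ± 164 TPM.

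miR-155-5p was a low-abundance miRNA. It was counted 27, 27 and 28 times in control replicates 1 to 3, and TAA replicates 1 to 3 had 197, 174 and 135 counts. In CPM these were 2.63, 3.56 and 3.73 against 12.2, 11.7 and 9.06, again without overlap between the groups. The group means were 3.30 ± 0.594 and 10.99 ± 1.68 CPM. The log2 fold change was 1.65 (SE 0.23, 95% interval 1.11 to 2.20, edgeR FDR 0.00102). Under library totals it was 2.77 (FDR 7.25e-05).

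miR-146a-5p, which shares the seed of miR-146b-5p, had values of 375, 515 and 550.3 CPM in control replicates 1 to 3. The TAA livers, in the same order, had 516, 474 and 365 CPM. The groups overlapped. The log2 fold change was -0.17 (SE 0.19, 95% interval -0.61 to 0.26, edgeR FDR 0.452), an interval that holds no 2-fold change in either direction on this scale. Under library totals the sign was the opposite, with 297, 380.3 and 415 TPM in the control livers against 739, 774 and 594 TPM in the TAA livers and a log2 fold change of 0.95 (95% interval 0.53 to 1.36, edgeR FDR 0.00208), which stayed below a fold change of 2. On that scale 71.9% of all rows were higher with an FDR below 0.05. On either scale its log2 fold change lay below the median of all rows, by -0.29 under TMM and by -0.28 under library totals. Whether miR-146a-5p changed therefore depended on the scale, whereas the rises of the other 2 arms did not.

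**Figure D2:**
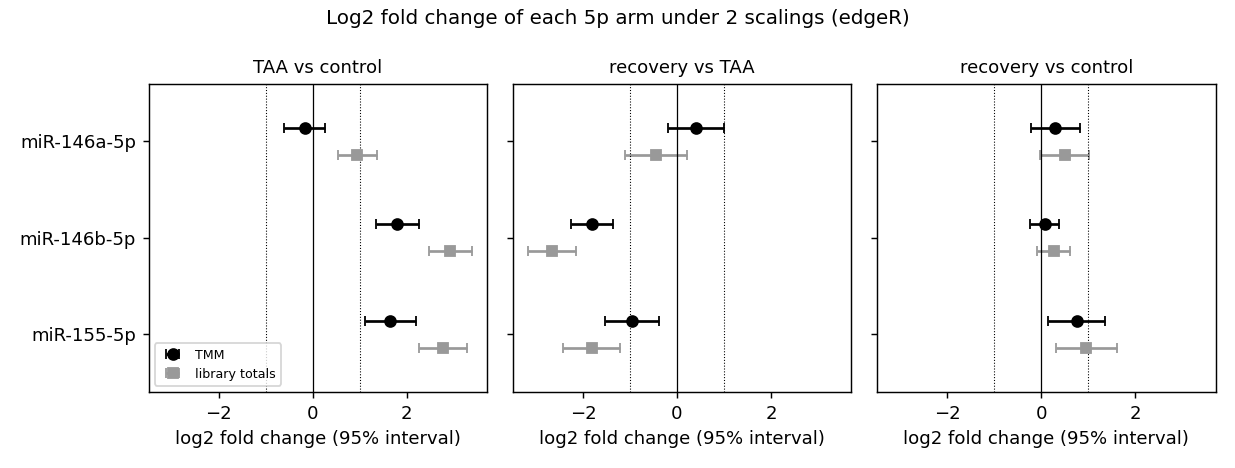
Log2 fold change of the 5p arms in the 3 comparisons with its 95% interval, under TMM (black circles) and under library totals (grey squares). Dotted lines mark a fold change of 2 in either direction. In TAA vs control the 2 scalings put miR-146a-5p on opposite sides of 0 (-0.17 and 0.95), while miR-146b-5p (1.80 and 2.93) and miR-155-5p (1.65 and 2.77) stayed above 1.

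After TAA withdrawal, miR-146b-5p fell back and miR-155-5p fell by less. Here the recovery livers were set against the TAA livers, to see what changed once the injury had stopped. One arm of the 3 tested, miR-146b-5p, was a DEM, where 14.5% of the 440 rows tested were DEMs in this direction (46.1% under library totals). With the FDR alone 2 arms were lower, where 20.7% of all rows were. These values share the TAA samples with those of TAA vs control, so a high or low TAA value enters both.

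In recovery replicates 1 to 3 miR-146b-5p was counted 1359, 1862 and 1904 times, which was 145, 171 and 174 CPM. All recovery livers lay below all TAA livers, as for 28.9% of the rows tested. The log2 fold change was -1.80 (SE 0.19, 95% interval -2.25 to -1.35, edgeR FDR 0.00054), and under library totals it was -2.66 (FDR 0.000129).

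miR-155-5p was counted 47, 77 and 55 times in recovery replicates 1 to 3, or 5.02, 7.07 and 5.04 CPM. These values lay below all TAA values and above all control values. Its log2 fold change against TAA was -0.96 (SE 0.25, 95% interval -1.54 to -0.38, edgeR FDR 0.0184), just short of a fold change of 2, and under library totals it was -1.82 (FDR 0.001). Over the alternative settings with all samples the FDR ranged from 0.000655 to 0.0369. The FDR rose above 0.05 without TAA replicate 2 (0.0528), recovery replicate 1 (0.0872) or recovery replicate 3 (0.0751). The arm became a DEM without TAA replicate 3 (log2 fold change -1.06) or recovery replicate 2 (-1.13).

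miR-146a-5p had 440.4, 524 and 847 CPM in recovery replicates 1 to 3, and recovery replicate 3 was the highest of all 9 livers on the TMM scale. In TPM the recovery values were 337, 465 and 742 in the same order, below TAA replicate 2 (774). With TAA the recovery group overlapped, and the log2 fold change was 0.40 (SE 0.26, 95% interval -0.20 to 0.99, edgeR FDR 0.258). Under library totals the sign was again the opposite (-0.45, FDR 0.197).

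Against control, the recovery livers showed no DEM among the 3 arms in edgeR, and DESeq2 and limma also gave 0. Here the question was which differences were left 8 weeks after TAA. Of all 391 rows tested 10.5% were DEMs in the upward direction (12% under library totals). miR-155-5p had an unadjusted edgeR p-value below 0.05, and the share of all rows at that threshold was not counted.

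For miR-146b-5p the group means were 163.6 ± 15.9 CPM in the recovery group and 151.5 ± 23.9 CPM in the control group, and the groups overlapped. The log2 fold change was 0.07 (SE 0.14, 95% interval -0.24 to 0.39, edgeR FDR 0.841). For miR-146a-5p the means were 604 ± 214 and 480.0 ± 92.9 CPM with a log2 fold change of 0.30 (SE 0.23, 95% interval -0.22 to 0.82, edgeR FDR 0.561), which was -0.048 without recovery replicate 3. Under library totals the log2 fold changes were 0.27 (FDR 0.404) for miR-146b-5p and 0.50 (FDR 0.251) for miR-146a-5p.

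miR-155-5p was the arm with a gap between these groups. Its mean was 5.71 ± 1.18 CPM in the recovery group against 3.30 ± 0.594 CPM in the control group, and no recovery liver overlapped with control, as for 17.4% of the rows tested in this direction. The log2 fold change of 0.76 (SE 0.27, 95% interval 0.16 to 1.37, unadjusted p-value 0.0188) did not pass the adjustment (edgeR FDR 0.108). Under library totals it was 0.96 with an FDR of 0.0486, and over the alternatives with all samples the FDR ranged from 0.0305 to 0.194.

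**Figure D3:**
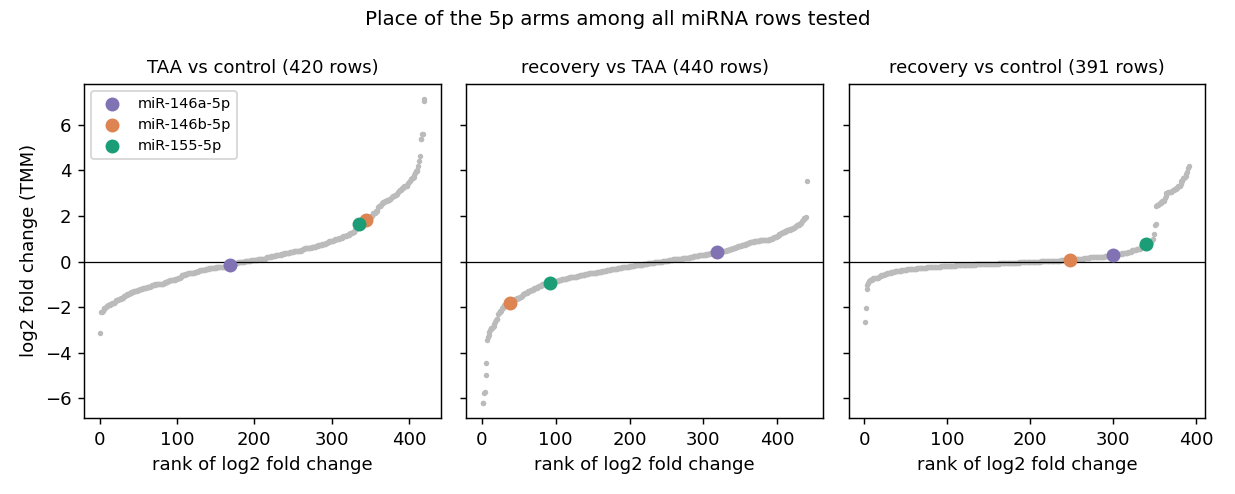
Log2 fold changes (TMM) of all rows tested, ordered from lowest to highest in each comparison, with the 5p arms marked. In the left panel 76 rows lay above miR-146b-5p, 84 above miR-155-5p and 251 above miR-146a-5p. In the middle panel 37 lay below miR-146b-5p and 91 below miR-155-5p.

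The place of each arm among the 1140 rows of its own sample, which needs no scaling between libraries, gave the same picture for miR-146b-5p and miR-155-5p. miR-146b-5p ranked 78 to 86 by count in the control livers, 43 to 51 in the TAA livers and 76 to 85 in the recovery livers. miR-155-5p ranked 280 to 299, 219 to 245 and 248 to 271 in the same order, so that the 3 groups were apart from each other. How many of all rows had ranks apart in this way was not counted. By CPM, 39.3% of all rows tested lay apart upward in TAA vs control. The shares were 28.9% downward in recovery vs TAA and 17.4% upward in recovery vs control. miR-146a-5p ranked 44 to 55, 45 to 57 and 35 to 50, with overlap between all groups. Ranks and levels of different miRNAs also depend on how well each is ligated into the library, so they are read as changes between samples. The same limit holds for the shares, ratios and sums of different miRNAs given here.

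Since the 2 miR-146 arms have the same seed, their balance was compared within each liver. There were 0.334, 0.333 and 0.288 counts of miR-146b-5p for each count of miR-146a-5p in control replicates 1 to 3. The TAA livers had 1.32, 0.885 and 1.62 counts in the same order, and the recovery livers 0.33, 0.326 and 0.206. All TAA livers were above all other livers. The log2 ratio averaged -1.66 ± 0.12 for control, 0.31 ± 0.44 for TAA and -1.83 ± 0.39 for recovery (SD, n = 3). The differences were 1.96 (TAA vs control) and -2.14 (recovery vs TAA, exact two-sided permutation p = 0.1 for each, adjusted 0.15 over 15 ratio tests), where 0.1 is the smallest p-value that 3 against 3 samples allow and no such test can pass 0.05. Control and recovery overlapped (exact permutation p = 0.5).

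Expressed as a share, miR-146b-5p made up 22.4% to 25.01% of the counts of both miR-146 arms in the control livers, 46.96% to 61.9% in the TAA livers and 17.1% to 24.8% in the recovery livers. For the TAA liver with the lowest share the exact 95% interval was 46.1% to 47.8%, and for the control liver with the highest share it was 23.8% to 26.2%, so the counting error was small beside the gap. The summed level of the seed, examined after the values were seen, was 632 ± 115 CPM for control, 1016 ± 159 CPM for TAA and 767 ± 226 CPM for recovery. The highest recovery liver (1021 CPM, replicate 3) lay within the range of the TAA livers (894 to 1195 CPM). All TAA livers lay above all control livers (499.6 to 709 CPM), which held for 39.3% of the rows tested. On this scale miR-146a-5p overlapped between TAA and control livers, and miR-146b-5p did not. In TPM the sums were 479 ± 73.6, 1577 ± 127 and 653 ± 225.

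**Figure D4:**
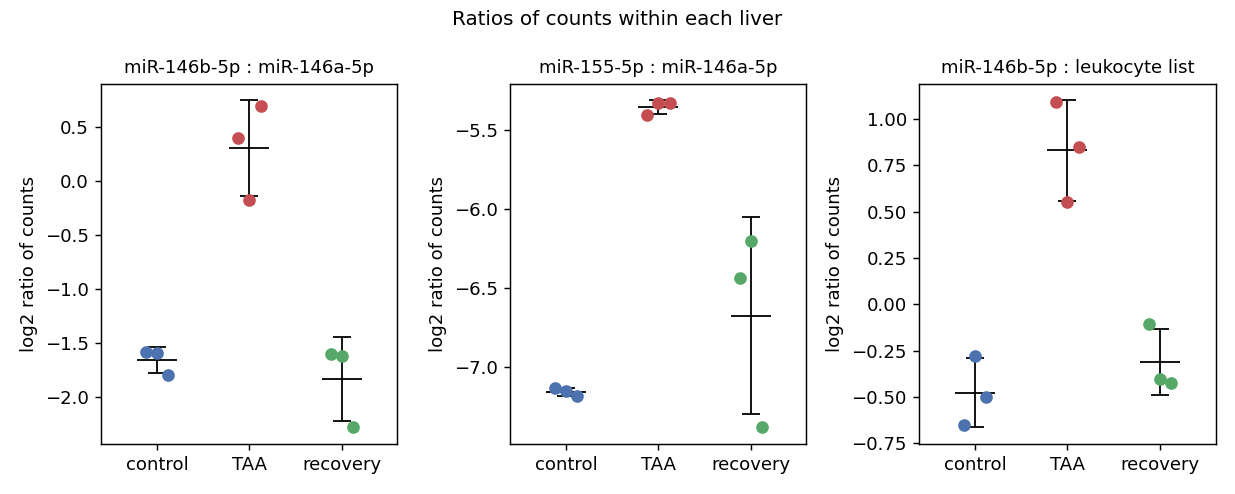
Log2 ratios of counts within each liver, for miR-146b-5p to miR-146a-5p, miR-155-5p to miR-146a-5p and miR-146b-5p to the sum of the leukocyte list. Points are mice, bars are mean and SD (n = 3). The TAA livers lie above all control and recovery livers in each panel, and recovery replicate 3 is the lowest point of the first 2 panels.

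The ratio of miR-155-5p to miR-146a-5p, which sets an amplifying miRNA against the feedback miRNA, was narrow within the control group (log2 -7.15 ± 0.03) and the TAA group (-5.35 ± 0.04). It was 1.80 higher in the TAA group (exact permutation p = 0.1, adjusted 0.15). In the recovery group it was wide (-6.67 ± 0.62). Recovery replicates 1 and 2 lay between the other groups (-6.44 and -6.20). Recovery replicate 3, which had the highest miR-146a-5p of the recovery livers, lay below all control livers (-7.38). Recovery and control overlapped, with a difference of 0.48 (exact permutation p = 0.4). With single samples left out the difference ranged from 0.24 (without recovery replicate 2) to 0.83 (without recovery replicate 3).

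The level of leukocyte miRNAs was examined beside these arms. The list held miR-142a-3p, miR-142a-5p, miR-150-5p, miR-223-3p and miR-342-3p, of which miR-223 is typical of neutrophils and monocytes and miR-150 of mature lymphocytes. Its summed level was 196 to 224 CPM in the control livers, 286 to 330.2 CPM in the TAA livers and 156 to 234 CPM in the recovery livers, and no listed miRNA was at 0 in any group. In TAA vs control 4 of the 5 rose with an FDR below 0.05 (edgeR), where 31.9% of all rows did, and 1 was a DEM, miR-223-3p (log2 fold change 1.15, FDR 0.00217). miR-342-3p had a log2 fold change of 0.76, miR-150-5p of 0.74 and miR-142a-3p of 0.65. The median of the list was 0.74 beside 0.11 over all rows, and under library totals it was 1.87 beside 1.23, with all 5 DEMs, where 57.4% of all rows were. miR-142a-5p did not pass on the TMM scale (0.30, FDR 0.0704). In recovery vs TAA 3 of the 5 fell (FDR below 0.05), where 20.7% of all rows did, with a median of -0.75 beside -0.12. Under library totals all 5 were DEMs downward, where 46.1% of all rows were, with a median of -1.59 beside -0.98. In recovery vs control 0 of 5 passed on either scale. Of all 391 rows 55 passed the FDR there on the TMM scale, in either direction. The part of leukocytes in the changes of miR-146b-5p and miR-155-5p was not tested.

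The arms were also expressed relative to the summed counts of the leukocyte list in the same liver. Most of this sum was miR-142a-5p, with a mean of 141 of 209 CPM for control and 185 of 312 CPM for TAA. For miR-146b-5p the log2 ratio was -0.48 ± 0.19 for control, 0.83 ± 0.27 for TAA and -0.31 ± 0.18 for recovery, and the TAA livers did not overlap with either group (exact permutation p = 0.1 for each, adjusted 0.15). For miR-155-5p the log2 ratio was -5.97 ± 0.20, -4.83 ± 0.31 and -5.15 ± 0.32 in the same order. Its TAA and recovery values overlapped (exact permutation p = 0.3), and both groups lay above all control livers (exact permutation p = 0.1 for each, adjusted 0.15). For miR-146a-5p the ratio was lower in the TAA group, with 0.52 ± 0.33 against 1.18 ± 0.21 for control and 1.52 ± 0.32 for recovery, and the TAA livers lay below all others (exact permutation p = 0.1 for each, adjusted 0.15). With the mean of the log2 counts of the list in place of its sum, so that each listed miRNA weighs the same, the differences between TAA and control were 1.08 for miR-146b-5p, 0.91 for miR-155-5p and -0.89 for miR-146a-5p, beside 1.31, 1.14 and -0.66 with the sum.

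Other miRNAs described as induced by NF-κB or as acting on its pathway were followed as a list of 13, of which 12 were tested in TAA vs control. Of these 8 rose and 2 fell with an FDR below 0.05 on the TMM scale, where 31.9% of all rows rose and 26.4% fell. DEMs numbered 6, all higher, where 25% of all rows were such DEMs. Under library totals all 12 were higher with an FDR below 0.05 and 9 were DEMs, on a scale where this held for 71.9% and 57.4% of all rows. The median log2 fold change was 0.88 beside 0.11 over all rows (1.99 beside 1.23 under library totals). The same list had a median of -0.70 beside -0.12 in recovery vs TAA. Here 4 of 12 fell and 1 rose with an FDR below 0.05, where 20.7% of all rows fell and 18.4% rose, and 3 were DEMs, all lower, where 14.5% of all rows were. Under library totals all 12 fell by this FDR, a share not counted over all rows. Of these, 9 were DEMs, where 46.1% of all rows were, and the median was -1.56 beside -0.98. In recovery vs control 0 of 10 tested passed on the TMM scale and 1 under library totals. Of all 391 rows 55 passed this FDR in either direction on the TMM scale. The share under library totals was not counted.

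miR-147-3p, a miRNA induced by Toll-like receptor signals in macrophages, had 0 counts in all control livers, 14, 26 and 24 counts in TAA replicates 1 to 3, and 0, 3 and 2 counts in recovery replicates 1 to 3. Against a floor of 3 counts per control library, the TAA mean was at least 3.89-fold higher (edgeR FDR 0.00353), and the fall to recovery passed as well (FDR 0.00935). The median of the list is the same with this miRNA at its bound. miR-132-3p and miR-212-3p, which come from one primary transcript, had log2 fold changes of 1.95 (FDR 0.00122) and 2.58 (FDR 0.0165) against control. In recovery vs TAA miR-132-3p fell by 1.64 on the log2 scale (FDR 0.00646), and miR-212-3p had -1.23 (FDR 0.0744). miR-199a-5p, which is known from stellate cells and from repression of the kinase Ikkβ, rose by 1.44 and fell by 1.28. In contrast, miR-21a-5p and miR-10a-5p, named here after their values were seen, fell in TAA vs control on the TMM scale (-0.36 and -0.49) and were higher under library totals.

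**Figure D5:**
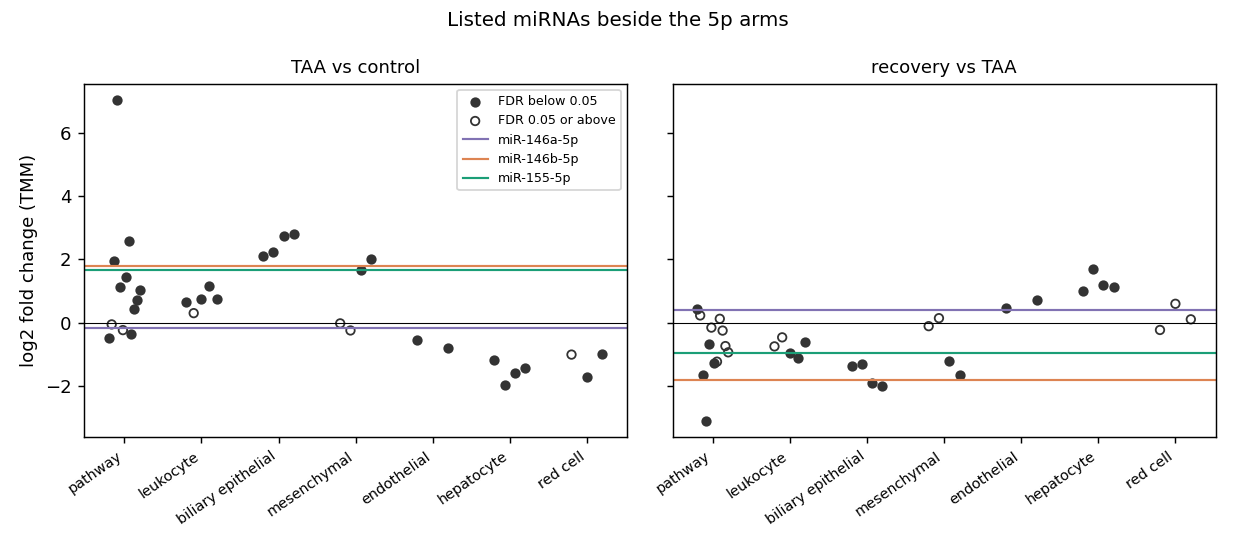
Log2 fold changes (TMM) of the listed miRNAs in TAA vs control and recovery vs TAA, filled where the FDR was below 0.05, with horizontal lines at the values of the 3 arms. The leukocyte list (0.30 to 1.15) lies below the lines of miR-146b-5p (1.80) and miR-155-5p (1.65) in TAA vs control, and the biliary epithelial list (2.11 to 2.81) lies above them. The highest pathway point is miR-147-3p, whose fitted value is no bound because all control counts were 0.

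Markers of other cell types were followed in TAA vs control, where on the TMM scale 25% of all rows were DEMs upward and 16.7% downward. All 4 biliary epithelial miRNAs were DEMs upward, with a summed level of 567 to 741 CPM in the control livers, 3256 to 5477 CPM in the TAA livers and 1206 to 1376 CPM in the recovery livers. Of the 4 mesenchymal miRNAs 2 were DEMs upward, miR-214-3p (log2 fold change 2.003) and miR-199a-3p (1.66), and miR-143-3p and miR-145a-5p did not pass on the TMM scale. The mesenchymal sum overlapped between all groups (25239 to 30911 CPM for control, 17582 to 38925 CPM for TAA, 21626 to 35550.5 CPM for recovery). All 4 hepatocyte miRNAs were DEMs downward on the TMM scale with a median of -1.50 and sums of 107513 to 114004 CPM against 362069.5 to 377132 CPM in control and 273292 to 401964 CPM in recovery livers, and under library totals 2 of 4 were lower with an FDR below 0.05 (5.24% of all rows) and 0 were DEMs. Both endothelial miRNAs fell on the TMM scale (median -0.68, sums of 8478 to 8952 CPM for control, 5700.4 to 6896 CPM for TAA, 8348 to 9123 CPM for recovery) and were higher under library totals (0.44). Of all rows 26.4% fell on the TMM scale and 71.9% were higher under library totals by the same FDR. Of the 3 red cell miRNAs 2 fell on the TMM scale (sums of 789 to 1339 CPM for control, 206 to 461 CPM for TAA, 329 to 622 CPM for recovery) and 0 passed under library totals. No listed marker was at 0 in a whole group. The part of these cell types in the levels of miR-146 and miR-155 was not tested.

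The rows with the profile most like miR-146b-5p over the 9 samples were miR-96-5p, miR-182-5p and miR-214-5p, by the root mean square difference of centred log2(CPM + 1) values. This difference was 0.23, 0.24 and 0.25, beside a median of 0.92 over the other 439 rows, and the same 3 rows were nearest under library totals. miR-182-5p, for example, had 512 ± 198 CPM in TAA livers, 147 ± 9.68 CPM in control livers and 152 ± 24.1 CPM in recovery livers. For miR-146a-5p the nearest rows were miR-184-3p, miR-532-5p and miR-345-3p (0.24, 0.26 and 0.27, beside a median of 0.55), and under library totals they were miR-532-5p, miR-140-3p and miR-191-3p. miR-155-5p was below the mean of 10 CPM set for this description. The nearest rows had no such minimum, and log2(CPM + 1) narrows differences at low levels. Group means were 1.96 to 2.33 CPM for miR-345-3p and 4.24 to 4.47 CPM for miR-191-3p, and miR-214-5p had 5.30 CPM in control livers.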

How the data were processed

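Small RNA reads were counted in 9 mouse livers. Per the labels and the methods of the study, total RNA was extracted with TRIzol, libraries were made with an adapter-ligation kit (NEBNext), and reads were mapped to mm10 and miRBase with Bowtie (1.3.0). The authors deposited 2 values per sample and row, an unnormalized read count and a TPM, which equalled the count per 1000000 of the column total with no term for length. The handling of reads shared by several miRNAs was not given in the sources used here. The labels gave the groups, and each sample was a different mouse. No replicates of a group agreed within sampling noise (chi-square per degree of freedom at least 26.2).

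Counts of all 1140 rows were tested in edgeR (4.0.16) for each pair of groups (filterByExpr with a minimum count of 10, TMM, glmQLFit and glmQLFTest without covariates, Benjamini-Hochberg FDR over all rows tested). The SE was the log2 fold change divided by the square root of F. Ratios used log2 counts plus 0.5 and exact two-sided permutation tests. The study used DESeq2, which was run as an alternative (1.42.0), as were limma (3.58.1), other scalings and filters, a replicate block and leaving out each sample. The members and lists were chosen with earlier results of these data known. All member rows were named, up to 4 of each list (called ones first, by size), and the 3 nearest rows for arms of at least 10 CPM. Replicate numbers are shared between groups but mark different mice, and deviations of same-numbered samples correlated at -0.24 to 0.24, so they were not taken as pairs. Sequences came from RefSeq (GRCm38.p6) and positions from GENCODE M21.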

Additional observations from a re-analysis of the deposited data

How the results depend on the processing

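The DEM calls of the 3 arms in TAA vs control numbered 2 under every alternative except a mean of at least 10 CPM, which gave 1 because miR-155-5p was not tested, and leaving out single samples gave 2 throughout. In recovery vs TAA the count was 1, and it was 2 with the FDR alone, under library totals, in limma and with a mean of at least 10 CPM, and 1 to 2 with single samples left out; the added call was miR-155-5p each time. In recovery vs control it was 0 throughout. With the replicate block 2, 1 and 0 arms were called in the 3 comparisons, and in no comparison did every sample correlate best with its own number.

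The sign of miR-146a-5p turned in TAA vs control under library totals (0.95), in limma (0.95) and with a mean of at least 10 CPM (0.017), and in recovery vs TAA under library totals (-0.45) and in limma (-0.51). In recovery vs control single samples left out gave -0.048 (without recovery replicate 3) to 0.51, and for miR-146b-5p -0.052 (without control replicate 1) to 0.18; none of these recovery vs control values passed the test. A pseudocount of 5 lowered the TAA vs control difference of the log2 ratio of miR-155-5p to miR-146a-5p from 1.80 to 1.62, because miR-155-5p had 27 to 28 counts in the control livers. Depth limits the 3p arms most, with 0 to 5 counts per sample. No alternative was added after the data were seen.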
